A study of Mus musculus with 2 samples.

Results

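The 9 genes *C1qa*, *C1qb*, *C1qc*, *C4b*, *C3*, *Cfp*, *Serping1*, *C3ar1* and *C5ar1* encode components, a regulator and receptors of the complement system. They were chosen by symbol from the 32285 genes counted, and their levels were read in the myeloid, glial and stromal cells of Nf1OPG mouse optic nerves. All 9 had UMIs in both libraries. The data are 2 droplet libraries of single cells, C-ON and FMC_new, made with a kit that reads the 5′ end of transcripts and counts molecules by unique molecular identifiers (UMIs).

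Both libraries carry the genotype label NF1-OPG. In this model of neurofibromatosis type 1 optic glioma, per the study's methods, mice carry 1 mutant and 1 floxed *Nf1* allele with a GFAP-driven Cre, so that *Nf1* is lost in GFAP-lineage cells while every other cell of the nerve keeps the floxed allele intact. The mice were 12 weeks old, and per the labels nerves from 10 of them were pooled for a suspension. The labels also describe dura taken from the same mice as a separate collection, while both libraries carry the tissue label optic nerve. The paper counts libraries as individual tumors, so the number of animals behind each library is not clear, and whether dural cells entered was not tested. One library title contains the word control and the other the words FMC new, and neither label gives a second genotype or a treatment, so both were taken as 2 libraries of 1 condition. No test between conditions was possible, no p-value is given, and values stand side by side for C-ON and FMC_new.

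Complement is a cascade of plasma and tissue proteins. In the classical pathway the hexameric C1q complex, built from the products of *C1qa*, *C1qb* and *C1qc*, binds antibodies, dying cells or synapses and starts the cleavage of C4 and then C3, while the alternative pathway is stabilized by properdin, the product of *Cfp*. The C1 inhibitor, encoded by *Serping1*, blocks the proteases that C1q activates, and the small fragments C3a and C5a signal through the receptors encoded by *C3ar1* and *C5ar1*. In the nervous system C1q is made mainly by microglia and is known for its part in synapse removal, and C4 is known as a gene of reactive glia.

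C-ON held 10845 barcodes with 85101211 UMIs and FMC_new held 21341 barcodes with 129113325 UMIs. After filters on genes, UMIs and mitochondrial reads 8834 cells with a median of 6810.5 UMIs and 16818 cells with a median of 4676 UMIs were kept. The 25652 cells formed 47 clusters, of which 33 were named from marker genes, giving 19 classes. The 14 unnamed clusters hold 3191 cells (12.4%). FMC_new contains 1189 pituitary endocrine-like cells and C-ON 19, and the libraries share 296 barcodes, 188 of them among the cells kept. The gene level used throughout is CPM, obtained by summing UMIs over the cells of a class in a library and scaling the sum of the gene to that of all genes. Brackets give exact 95% Poisson intervals, and shares of cells carry exact Clopper-Pearson 95% intervals where shown. Both cover counting error only.

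The marker lists were read in the classes. The same lists named the clusters, so a high level of a list in its own class is no independent check. All 8 oligodendrocyte markers, which a myelinated nerve should hold, were at a summed 64086 and 56835 CPM in oligodendrocyte-like cells. All 10 microglia markers had UMIs in microglia-like cells, with summed levels of 9704 and 8872 CPM, against 1496 and 1680 CPM in border-associated macrophage-like cells. All 9 border-associated macrophage markers were found in their class at 8666 and 6716 CPM, against 190 and 174 CPM in microglia-like cells. Macrophage-like cells lay between, with 2032 and 2475 CPM of the microglia markers and 968 and 886 CPM of the border-associated macrophage markers. No cluster was named endothelial. The classes of most use here are microglia-like (222 cells in C-ON and 1733 in FMC_new), border-associated macrophage-like (122 and 204), macrophage-like (120 and 439), type 2 dendritic cell-like (200 and 852), oligodendrocyte-like (5301 and 2085), tumor cell-like (218 and 1405) and fibroblast-like cells (99 and 217). T cell-like cells (970 and 3439), which should lack these genes, gave the background, with other lymphoid classes beside them for *C1qa*.

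The genes of the C1q subunits lie next to each other on the minus strand of chromosome 4 of GRCm38, *C1qb* at chr4:136880129-136886187, *C1qc* at chr4:136889804-136893065 and *C1qa* at chr4:136895917-136898803, with gaps of 3616 and 2851 bases between neighbors and a span of 18675 bases in all. Each has 3 exons in its longest transcript. Because the 3 genes had nearly the same pattern over the cells, as given further on, the upstream sequence of the 2 that RefSeq's promoter table holds is shown, 5′ to 3′ on the gene's own strand, at chr4:136886201-136886450 for *C1qb* and at chr4:136893066-136893164 for *C1qc*. The capitals mark ACTTCCT, the reverse complement of AGGAAGT, a core bound by ETS-family factors.
C1qb: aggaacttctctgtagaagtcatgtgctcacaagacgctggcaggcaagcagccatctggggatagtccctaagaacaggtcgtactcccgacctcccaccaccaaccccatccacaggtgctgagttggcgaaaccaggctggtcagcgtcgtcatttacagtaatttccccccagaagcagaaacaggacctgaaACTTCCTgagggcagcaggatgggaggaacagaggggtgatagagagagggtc
C1qc: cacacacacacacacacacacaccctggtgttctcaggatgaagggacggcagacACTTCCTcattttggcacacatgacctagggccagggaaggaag
In the 250 bases before each RefSeq start, searched on both strands, AGGAAGT was matched 53 bases before the start of *C1qb*, 195 bases before that of *C1qc*, and 190 and 72 bases before that of *C5ar1*. It occurs in 7.69% of 32851 promoters. The longer GAGGAAGT, which contains it, was matched in *C1qc* alone among the 6 genes with a promoter in the table (*C1qb*, *C1qc*, *C3*, *C3ar1*, *C5ar1* and *Cfp*) and occurs in 2.44% of promoters. These are matches of letters, not measured binding sites.

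*C1qa*, *C1qb* and *C1qc* were higher in microglia-like, border-associated macrophage-like and macrophage-like cells than in any other named class. In microglia-like cells *C1qa* was at 7989 CPM [7835 to 8145] in C-ON and 9180 [9116 to 9245] in FMC_new. In border-associated macrophage-like cells it was at 6088 and 7227 CPM, and in macrophage-like cells at 5857 and 7777 CPM. Both libraries thus put microglia-like cells first, while the order of the other 2 classes turned between libraries. *C1qb* was at 6818 and 7903 CPM in microglia-like, 6174 and 7150 in border-associated and 6301 and 7212 in macrophage-like cells. *C1qc* followed at 5530 and 6126, 5010 and 5487, and 4116 and 4901 CPM. The median microglia-like cell held 24 *C1qa* UMIs in C-ON and 29 in FMC_new.

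Almost every cell of these 3 classes held *C1qa* at equal depth. With every cell thinned to 1000 UMIs, a UMI of *C1qa* was found in 96.7% and 98.2% of microglia-like cells, 99.2% and 99.0% of border-associated and 97.5% and 98.2% of macrophage-like cells, against 0.85% and 5.26% of T cell-like cells at the same depth, cells whose full median was 3198 and 2988 UMIs against 4646 and 3813 in microglia-like cells. At full depth the T cell-like cells had 15.5 and 75.2 CPM of *C1qa*, and their levels of *C1qb* (23.3 and 75.3 CPM) and *C1qc* (10.7 and 56.5 CPM) differed between the libraries in the same direction. Plasma cell-like cells were at 47.6 and 85.6 CPM of *C1qa*, NK cell-like cells at 4.32 and 86.5 CPM and B cell-like cells at 10.4 and 121 CPM. *C1qa* levels at or below the highest of these lymphoid values in a library are read here as background.

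**Figure D1:**
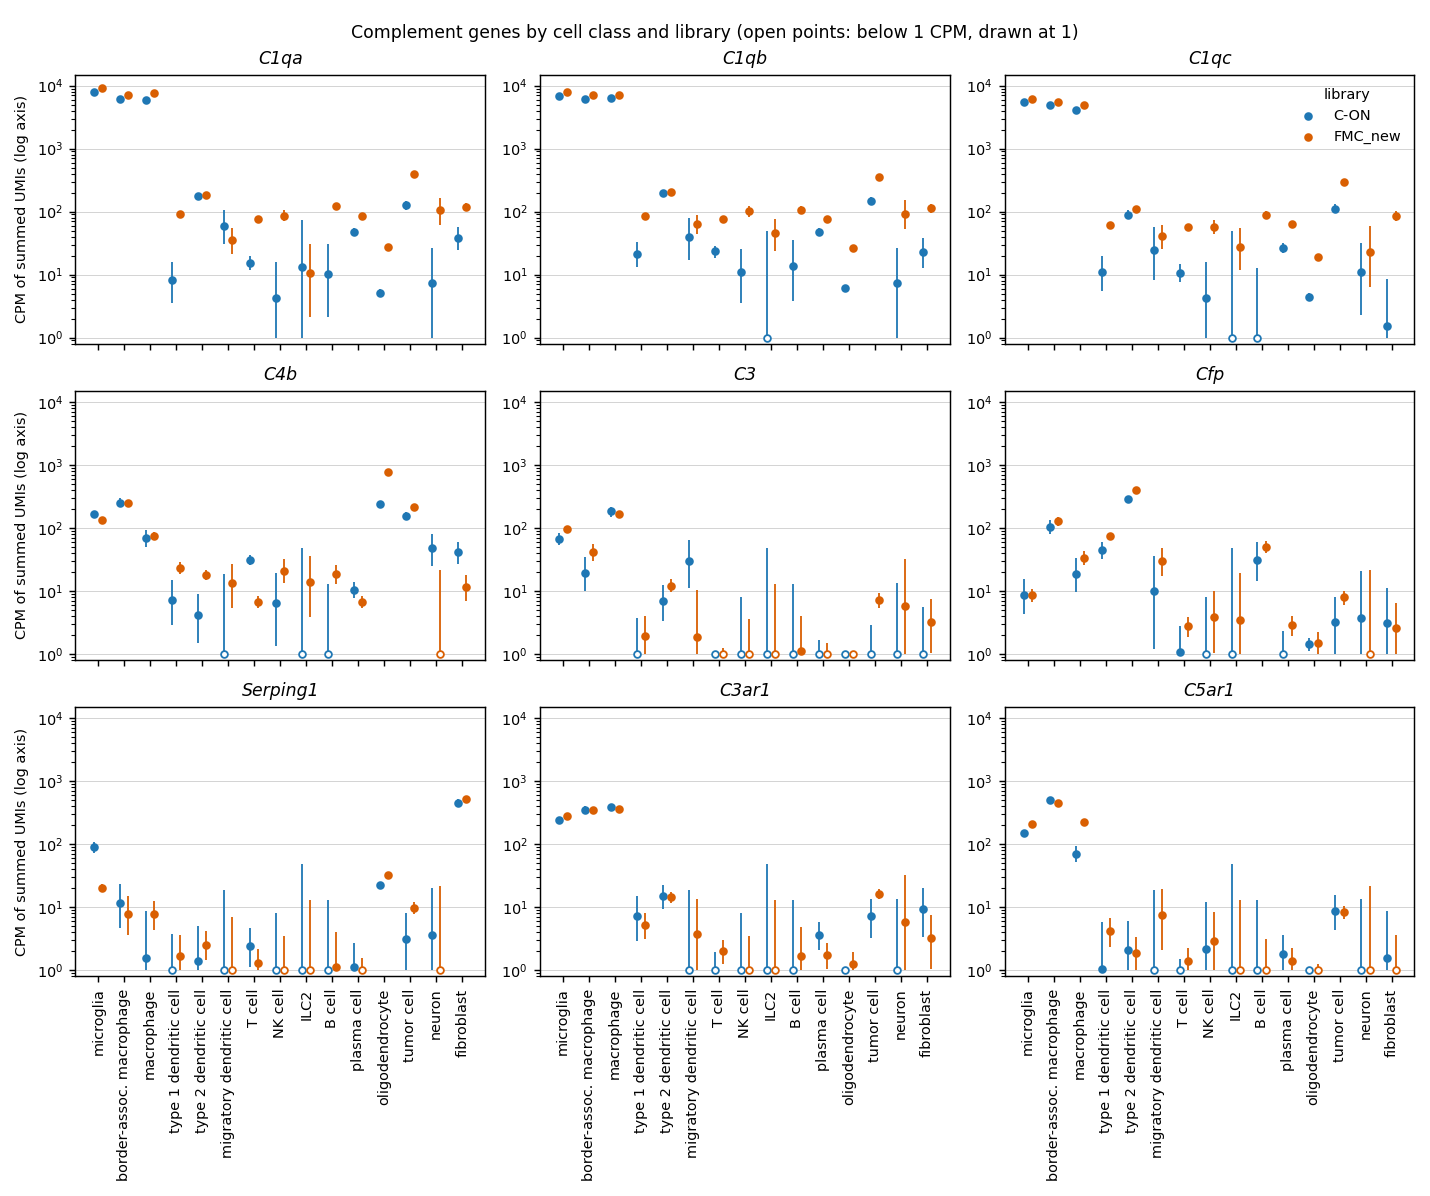
Level of each complement gene in the classes with at least 20 cells in both libraries, as CPM of summed UMIs on a log axis, 1 point per library with the exact 95% Poisson interval as a bar. The *C1q* genes stand at 4116 CPM or more in the 3 macrophage classes in both libraries, *C4b* peaks at 766 CPM in the oligodendrocyte-like cells of FMC_new, *Cfp* in type 2 dendritic cells and *Serping1* in fibroblasts.

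The proportions of the 3 subunit transcripts set microglia beside the other macrophages. For each *C1qa* UMI, microglia-like cells had 0.853 and 0.861 *C1qb* UMIs, border-associated cells 1.01 and 0.989, and macrophage-like cells 1.08 and 0.927. For *C1qc* the values were 0.692 and 0.667 in microglia-like, 0.823 and 0.759 in border-associated, and 0.703 and 0.630 in macrophage-like cells. The *C1qb* ratio was thus lower in microglia-like cells than in either other class in both libraries, with no overlap, while the *C1qc* ratio of the macrophage-like cells fell on either side of that of the microglia. Each ratio is a count of molecules read from the 5′ end and is not divided by transcript length.

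Outside the macrophages, *C1q* UMIs sat in a minority of cells. In FMC_new, 131 neutrophil-like cells were at 421 CPM of *C1qa* and 244 astrocyte-like cells at 260 CPM, with a UMI in 32 and 51 of them, above the background, while C-ON held 3 and 18 such cells. In type 2 dendritic cell-like cells *C1qa* was at 175 CPM in C-ON and 185 in FMC_new. All 258 *C1qa* UMIs of this class in C-ON came from 22 of its 200 cells, 14 of which held 5 or more, and in FMC_new from 200 of 852 cells, 54 of which held 5 or more. Of the 8 macrophage markers, 7 and 8 had UMIs in this class, at a summed 359 and 351 CPM, and their part in the result was not tested.

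In tumor cell-like cells *C1qa* was at 126 and 399 CPM and split by cluster. Tumor cell-like cluster 10, led by *Cspg5* and *Pdgfra*, had 23.9 and 48.3 CPM, near the T cell-like background. Cluster 17, led by *Gpr17* with immunoglobulin genes among its 10 leading genes, had 445 and 1305 CPM, and a median of 5829 and 2308 UMIs per cell against 5313 and 6252 in cluster 10. In C-ON, 12 of the 218 tumor cell-like cells held all 161 *C1qa* UMIs. The 10 microglia markers summed to 369 and 501 CPM in cluster 10, with 8 and 10 of them having UMIs, and to 626 and 1581 CPM in cluster 17, with 9 and 10. *Sparc*, which astrocyte-like and fibroblast-like cells also hold (627 and 1329, and 1506 and 1093 CPM), gave 255 and 395 CPM of the sum in cluster 10. The part of these markers in the result was not tested. In oligodendrocyte-like cells *C1qa* was at 5.2 and 27.8 CPM, below the T cell-like level in each library.

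*C4b*, the mouse gene for complement C4, lies at chr17:34728380-34743882 on the minus strand and has 41 exons in its longest transcript. Of the 5773 distinct windows of 90 bases in its 3 transcripts, 17.8% also occur in *C4a*, so reads from these stretches could not be assigned to one of the 2 genes. Oligodendrocyte-like cells held 11005 of the 12209 *C4b* UMIs in C-ON (90.1%) and 12992 of 18078 (71.9%) in FMC_new. Their level was 240 CPM [236 to 245] in C-ON and 766 [753 to 779] in FMC_new. Border-associated macrophage-like cells stood at 252 [214 to 294.4] and 250 [222 to 280] CPM, so in C-ON the 2 classes were not distinguishable, while in FMC_new oligodendrocyte-like cells were clearly higher. Microglia-like cells were at 163 and 134, tumor cell-like cells at 155 and 210 (131 and 228 in cluster 10), and macrophage-like cells at 68.8 and 74.3 CPM. T cell-like cells had 30.7 and 6.67 CPM, and a *C4b* UMI was found in 1.59% and 0.665% of them at 1000 UMIs per cell.

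Within oligodendrocytes *C4b* was concentrated in a single cluster. Cluster 3, led by the interferon-induced *Iigp1* and by *Serpina3n*, a serine protease inhibitor gene of reactive glia, had 1130 CPM [1106 to 1155] in its 778 C-ON cells and 1273 [1248 to 1299] in its 926 FMC_new cells. The other 4 oligodendrocyte-like clusters ranged from 51.6 to 114 CPM in C-ON and from 114 to 626 CPM in FMC_new. The highest of them in both libraries was cluster 11, led by *Plcl1* and *Hecw2*. The 2 values of cluster 3 lie closer together than those of the class as a whole, and cluster 3 made up 778 of 5301 oligodendrocyte-like cells in C-ON and 926 of 2085 in FMC_new. At full depth 1666 of the 5301 cells of C-ON and 1384 of the 2085 cells of FMC_new held a *C4b* UMI, and the highest cells held 58 and 60. At 1000 UMIs per cell the shares were 14.4% and 40.6%.

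*C4b* and *Serping1* were higher in the oligodendrocyte-like cells that held a *Serpina3n* UMI. *C4b* was at 353 CPM in the 2947 cells with such a UMI and 51.8 CPM in the 2354 without in C-ON, and at 911 and 224 CPM in the 1511 and 574 cells of FMC_new, folds of 6.82 and 4.06. *Serping1* was at 35.2 against 1.10 CPM and at 40.2 against 2.51 CPM, folds of 31.9 and 16.0. A gene was called where the fold was at least 2 in the same direction in both libraries among genes with a mean of at least 10 CPM. By this rule 2 of the 5 complement genes tested were called, and none was lower, where 1.19% of the 8296 genes tested were called higher, 0.0482% lower and 1.24% either way. *Serping1* passed the level filter only through the cells with a *Serpina3n* UMI. Its call was thus largely set by the filter and adds no support to this count. The *C1q* genes were not called, with folds of 1.26 to 1.32 in C-ON and 0.78 to 1.00 in FMC_new. The median log2 difference of the 5 was 0.40 and 0.00, against 0.01 and -0.01 over all genes. Cells with a *Serpina3n* UMI were deeper (median 9289 against 6848 UMIs in C-ON and 8479 against 6063.5 in FMC_new), and with every cell thinned to 1000 UMIs before the split *C4b* and *Serping1* were called again.

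The same genes were higher in oligodendrocyte-like cells with interferon-response transcripts, taken as 2 or more UMIs of a list of 10 genes (*Ifit1*, *Ifit3*, *Ifit3b*, *Iigp1*, *Gbp2*, *Irf7*, *Rsad2*, *Isg15*, *Oasl2* and *Usp18*), against cells with 0. *C4b* was at 993 CPM in 729 such cells and 94.8 CPM in the 4168 cells with 0 in C-ON, and at 1238 and 411 CPM in 759 and 1057 cells of FMC_new. *Serping1* was at 143 against 0.29 CPM and at 78.6 against 1.5 CPM. The folds of *Serping1*, 500 and 52.4, rest on very few UMIs in the cells without interferon transcripts. *C1qc* was called as well, at 9.49 against 2.87 and 26.9 against 13.1 CPM, levels below those of T cell-like cells. Here 3 of 5 complement genes tested were called higher where 2.24% of 8356 genes were, and none was lower (0.0838%), with 2.32% of genes called either way. *Serping1* again passed the level filter only through the group where it was high, so its call adds no support to this count. The median log2 difference of the 5 was 1.73 and 1.04, against -0.02 and -0.04 over all genes. When cells were thinned first, *C4b* and *Serping1* stayed called, *C1qc* did not, and *C1qb* was called in its place.

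With the 2 criteria crossed at full depth, *C4b* went up in steps in C-ON, from 45.6 CPM in the 2119 cells with neither, to 133 CPM in the 2049 with *Serpina3n* alone, 212 CPM in the 63 with interferon transcripts alone and 1055 CPM in the 666 with both. In FMC_new it was at 129, 545, 724 and 1276 CPM. *Serping1* was at 0.33, 0.25, 25.05 and 153 CPM in C-ON and at 1.55, 1.47, 6.50 and 83.9 CPM in FMC_new, in the same order. At full depth *C4b* was thus at least 2-fold above the cells with neither in cells with *Serpina3n* alone in both libraries, whereas *Serping1* was not. Which cells fall in which group depends on depth. At 1000 UMIs per cell, *C4b* was at 90.2, 388, 1288 and 1208 CPM in C-ON and at 341, 1090, 1165 and 1264 CPM in FMC_new, so that interferon transcripts alone then gave a level near that of both. *Serping1* was then at 0.24, 6.57, 178 and 229 CPM and at 6.66, 14.6, 64.2 and 159 CPM. The contrast between the genes seen at full depth was thus lost, both being at least 2-fold higher with *Serpina3n* alone than with neither in each library, with 4 and 7 *Serping1* UMIs behind the values for *Serpina3n* alone and intervals that overlap for *Serping1* in FMC_new. The intervals of *Serping1* with interferon transcripts alone and with both overlapped in each library.

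**Figure D2:**
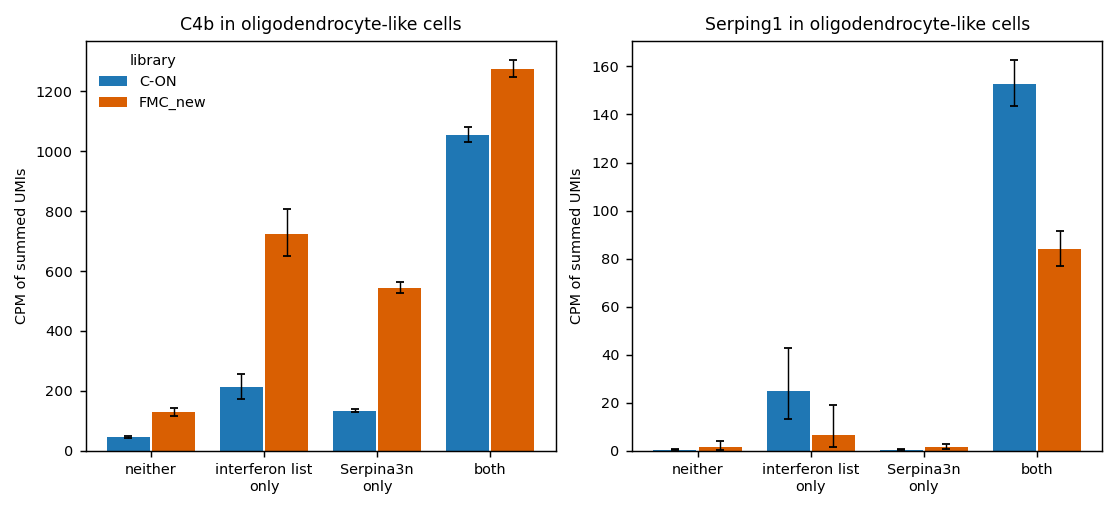
*C4b* and *Serping1* in oligodendrocyte-like cells split by a *Serpina3n* UMI and by 2 or more UMIs of the interferon list, as CPM of summed UMIs at full depth, 1 bar per library with the exact 95% Poisson interval. *C4b* is highest with both (1055 and 1276 CPM) and intermediate with either, and *Serping1* is highest with both (153 and 83.9 CPM), followed by interferon transcripts alone (25.05 and 6.50 CPM).

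*C3*, the central component, lies at chr17:57203970-57228136 on the minus strand with 41 exons in its longest transcript, and the microRNA gene *Mir6978* lies within it. *C3* was found mainly in myeloid cells. Macrophage-like cells had 181 CPM [150 to 218] in C-ON and 167 [150 to 186] in FMC_new, and microglia-like cells 66.0 [52.7 to 81.6] and 94.3 [87.9 to 101]. Border-associated macrophage-like cells were lower at 19.5 [10.1 to 34.0] and 40.9 [30.04 to 54.4]. In FMC_new, 131 neutrophil-like cells had 222 CPM and 30 monocyte-like cells 191 CPM, classes with 3 and 7 cells in C-ON. No *C3* UMI was found in the 970 T cell-like or the 218 tumor cell-like cells of C-ON, where a count of 0 allows up to 0.802 and 2.35 CPM (3 counts of the class). In FMC_new, T cell-like cells held 7 *C3* UMIs (0.599 CPM). There, 25 of the 1405 tumor cell-like cells held 56 *C3* UMIs, 3.24% of all in that library. At 1000 UMIs per cell a *C3* UMI was found in 14.3% and 9.36% of macrophage-like and 6.05% and 8.13% of microglia-like cells.

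Among macrophages *C3* depended on the sub-cluster. Macrophage-like sub-cluster 4_0, led by *Ccl8* and *Apoe*, had 188 and 231 CPM. Sub-cluster 4_3, led by *Ms4a7*, *Cxcl2* and *Ccl4*, had 150 CPM in 22 cells of C-ON and 31.2 CPM in 169 cells of FMC_new, so its place differed between the libraries. Its *C5ar1* level moved the other way, from 140 to 429 CPM, against 56.3 and 125 CPM in 4_0.

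*Cfp*, at chrX:20925454-20931555 on the minus strand with 9 exons, was highest in type 2 dendritic cells. These had 286 CPM [259 to 314] in C-ON and 405 [389 to 421] in FMC_new and held 59.8% and 65.2% of all *Cfp* UMIs. At 1000 UMIs per cell, 29.5% and 28.3% of these cells held a *Cfp* UMI, and at full depth 70.5% and 74.3% did. Border-associated macrophage-like cells came next at 102 and 126 CPM. In FMC_new, 30 monocyte-like cells had 95.4 CPM and 131 neutrophil-like cells 90.4 CPM, classes with 7 and 3 cells in C-ON. Type 1 dendritic cell-like cells had 43.7 and 73.5 CPM and B cell-like cells 31.1 and 49.3 CPM. Microglia-like cells were at 8.54 CPM in both libraries, and T cell-like cells at 1.07 and 2.74 CPM, with a *Cfp* UMI in 0 and 0.333% of them at 1000 UMIs per cell. The unnamed sub-cluster 4_2, led by *Lyz2*, *Cxcl2* and *Ccl9* with *Ccr2* among its leading genes, had 86.4 and 174 CPM of *Cfp* together with 2743 and 3179 CPM of *C1qa*.

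*Serping1*, at chr2:84765387-84775444 on the minus strand with 8 exons, was highest in fibroblasts. Fibroblast-like cells had 454 CPM [404 to 509] in C-ON and 525 [490 to 562] in FMC_new, and a UMI was found in 83 of 99 and 180 of 217 cells. At 1000 UMIs per cell the shares were 39.4% and 34.6%. The 22 and 38 cells of sub-cluster 18_3, led by *Dcn* and *Lum*, had 1169 and 1566 CPM, and the 77 and 179 cells of sub-cluster 18_0, led by *Ccn3* and *Mgp*, had 339 and 381 CPM. The level was thus higher in the *Dcn*-led cells in each library, with intervals apart ([958 to 1412] against [293 to 391] in C-ON). In oligodendrocyte-like cells *Serping1* was at 22.4 and 32.2 CPM on average but at 140 and 69.7 CPM in the interferon-marked cluster 3, and at most 1.80 CPM in each of the other 4 clusters in either library. By number of UMIs, oligodendrocyte-like cells held 68.8% of *Serping1* UMIs in C-ON and 26.3% in FMC_new, and fibroblast-like cells 20.1% and 39.8%. T cell-like cells had 2.41 and 1.28 CPM, and 0.211% and 0.212% of them held a UMI at 1000 UMIs per cell.

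The anaphylatoxin receptors were found mainly in macrophages. *C3ar1*, at chr6:122847138-122856161 on the minus strand with 2 exons, was at 386 CPM [340 to 438] and 360 [335 to 387] in macrophage-like, 352 [307 to 402] and 348 [315 to 384] in border-associated and 238 [212 to 266] and 280 [269 to 291] in microglia-like cells. The first 2 classes overlapped in both libraries and microglia-like cells were below both. The next named class with at least 20 cells in FMC_new was the neutrophil-like one at 22.6 CPM, and in C-ON the type 2 dendritic cell-like one at 14.96 CPM. At 1000 UMIs per cell, a *C3ar1* UMI was found in 16.7% and 16.9% of microglia-like and 26.2% and 30.4% of border-associated cells, against 0.106% and 0.302% of T cell-like cells. Microglia-like cluster 5 had 244 and 316 CPM and the shallow microglia-like cluster 15 141 and 78.2 CPM. In FMC_new the value of cluster 5 thus lay within the interval of the border-associated cells, at its lower end.

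*C5ar1*, at chr7:16246743-16259540 on the minus strand with 2 exons in its longest transcript, was highest in border-associated macrophage-like cells at 492 CPM [438 to 550] and 451 [413 to 491]. Microglia-like cells had 147 [127 to 169] and 207 [198 to 217] CPM, and macrophage-like cells 70.4 [51.3 to 94.2] and 222 [203 to 244]. Macrophage-like cells were below microglia-like cells in C-ON and not distinguishable from them in FMC_new. Their sub-cluster 4_3, given above, lay within the border-associated interval in FMC_new and below it in C-ON. In FMC_new, neutrophil-like cells had 373 CPM, and 39.8% of them held a *C5ar1* UMI at 1000 UMIs per cell, with an interval of 31.1 to 49.1% that overlaps the one of border-associated cells in the same library (31.4%, 25.1 to 38.2%). Both receptors were found in the same cell in 9.84% and 11.8% of border-associated, 2.79% and 3.15% of microglia-like and 0.84% and 5.25% of macrophage-like cells at this depth.

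**Figure D3:**
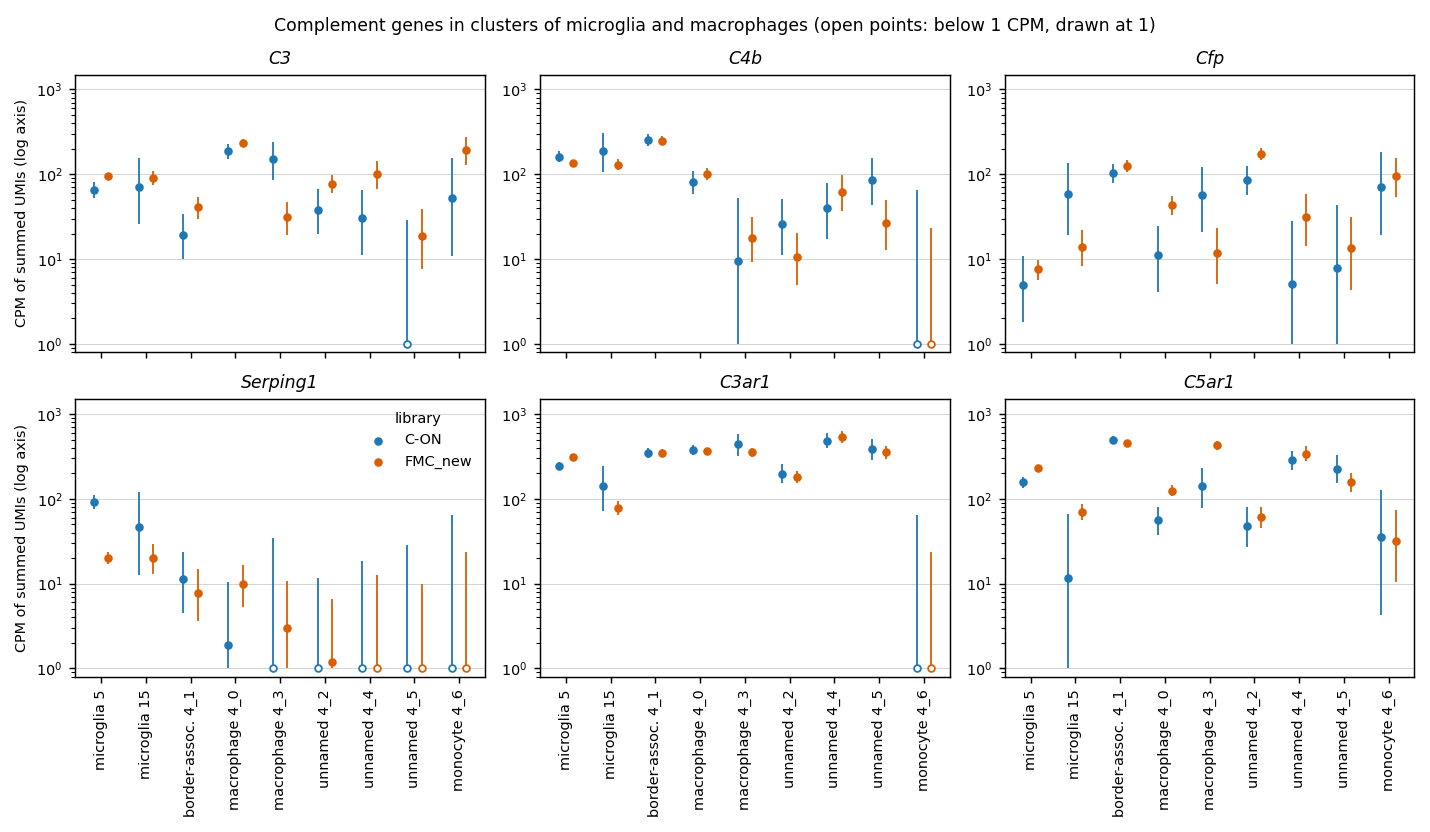
The 6 complement genes other than the *C1q* genes in each microglia and macrophage cluster, as CPM of summed UMIs on a log axis, 1 point per library with the exact 95% Poisson interval. *C5ar1* and *Cfp* are higher in the border-associated cluster 4_1 (492 and 451, and 102 and 126 CPM) than in microglia cluster 5, and *C3* is highest in macrophage cluster 4_0 (188 and 231 CPM), with intervals that overlap those of cluster 4_3 in C-ON and of the monocytes in FMC_new.

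The direct comparison of border-associated macrophages with microglia separated the members into groups. *C5ar1* was 3.35-fold and 2.17-fold higher in border-associated cells and *Cfp* 12.0-fold and 14.8-fold higher. *C3* was lower, at 0.30 and 0.43 times the microglia level, and *Serping1* at 0.13 and 0.39 times (11.4 against 88.5 CPM and 7.83 against 19.999 CPM). Border-associated cells held 7 and 9 *Serping1* UMIs. Microglia-like cells without a *Cst7* or *Lpl* UMI had 6.38 and 9.79 CPM of *Serping1* and 9.57 and 55.4 CPM of *C3*. For *Serping1* both values lay within the intervals of border-associated cells ([4.57 to 23.4] in C-ON and [3.58 to 14.9] in FMC_new), so no order can be given. For *C3* these microglia were below border-associated cells (19.5 CPM) in C-ON and above them (40.9 CPM) in FMC_new. Each *C3* value lay only just outside the border-associated interval. The remaining 5 members were not called. *C4b* was 1.54-fold and 1.87-fold and *C3ar1* 1.48-fold and 1.24-fold higher in border-associated cells, and the 3 *C1q* genes were between 0.76 and 0.91 times the microglia level. Of the 9 members 2 were called higher in border-associated cells, where 4.04% of 8516 genes were, and 2 higher in microglia, where 4.9% were. In either direction 4 of 9 members were called, against 8.94% of all genes. *Cfp* passed the level filter only through border-associated cells and *Serping1* mainly through microglia-like cells, so their calls add little to this count. The median log2 difference of the members was -0.14 in each library, against -0.03 and 0.00 over all genes. Without the shallow microglia-like cluster 15, an alternative added after the data were seen, *C5ar1* was 3.15-fold and 1.94-fold higher and so just missed the call, as it did at a cluster resolution of 0.4 (2.88-fold and 1.95-fold).

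Some other genes of the pathway separated the same cells, and others did not. *Fcna*, which encodes the lectin-pathway recognition protein ficolin A, was at 393 and 338 CPM in border-associated cells and at 2.33 and 2.11 CPM in microglia-like cells. *Colec12*, a scavenger collectin, was at 172 and 104 against 8.54 and 7.602 CPM, and *Cd93* at 69.8 and 73.9 CPM against no UMI in C-ON and 2.46 CPM in FMC_new. *Cfb*, the alternative-pathway protease factor B, was lower at 30.8 and 32.2 against 138 and 78.6 CPM. *Itgax*, a subunit of complement receptor 4, was listed at 0 UMIs and at 2.61 CPM in border-associated cells and at 56.7 and 77.4 CPM in microglia-like cells. *Cd59a*, *Cr1l*, *Itgam* and *Itgb2* were tested and not called. Border-associated cells had 0.96 and 0.97, 1.16 and 1.26, 0.54 and 0.50, and 0.68 and 0.71 times their microglia levels.

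In microglia-like cells, *C3* and *Serping1* were higher in the cells with a UMI of *Cst7* or *Lpl*, genes of activated microglia. *C3* was at 119 CPM in the 75 cells with such a UMI and 9.57 CPM in the 147 without in C-ON, and at 132 and 55.4 CPM in 619 and 1114 cells in FMC_new, folds of 12.5 and 2.38. *Serping1* was at 166 against 6.38 CPM and at 29.8 against 9.79 CPM. *C4b* was 3.03-fold higher in C-ON and 1.34-fold in FMC_new and was not called. *C1qa* was 1.70-fold and 1.25-fold higher, *C3ar1* 0.95-fold and 1.16-fold and *C5ar1* 1.47-fold and 1.22-fold, none of them called. By the same rule 2 of the 8 members tested were called higher, where 0.53% of 8486 genes were, and none lower, where 1.08% were, with 1.61% called either way. Here too *Serping1* passed the level filter only through the group where it was high, so its call adds no support to this count. The median log2 difference of the 8 was 0.66 and 0.30, against -0.17 and -0.07 over all genes. Cells with a *Cst7* or *Lpl* UMI were deeper (median 8568 against 3791 UMIs in C-ON and 6507 against 2723 in FMC_new). With cells thinned to 1000 UMIs before the split, *C3* was called and *Serping1* was not. Among the other genes of the pathway, *Itgax* was called (8.93-fold and 2.19-fold higher) and *Cfb*, at 231 against 39.9 and 103 against 52.8 CPM, was not.

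Crossed with the interferon list, *Serping1* in microglia was again highest in cells positive for both. In C-ON it was at 4.11 CPM in the 72 cells with neither, 14.5 CPM in 13 with *Cst7* or *Lpl* alone, 8.61 CPM in 41 with interferon transcripts alone and 222 CPM in 49 with both. In FMC_new the values were 5.82, 8.79, 11.6 and 33.6 CPM in 492, 137, 383 and 385 cells. The first 3 groups overlapped within their counting intervals in each library and the fourth was above them. *C3* was at 4.11, 29.0, 12.9 and 147 CPM in C-ON and at 27.7, 72.1, 79.3 and 148 CPM in FMC_new, so that in FMC_new either criterion alone went with a higher level than neither. *C4b* was at 28.8, 58.0, 155 and 304 CPM and at 66.2, 75.6, 152 and 171 CPM, higher with interferon transcripts in both libraries. Median depth was also higher, from 2848.5 UMIs with neither to 9895 with both in C-ON and from 1936.5 to 8331 in FMC_new, and its part was not tested beyond the thinned comparison above.

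**Figure D4:**
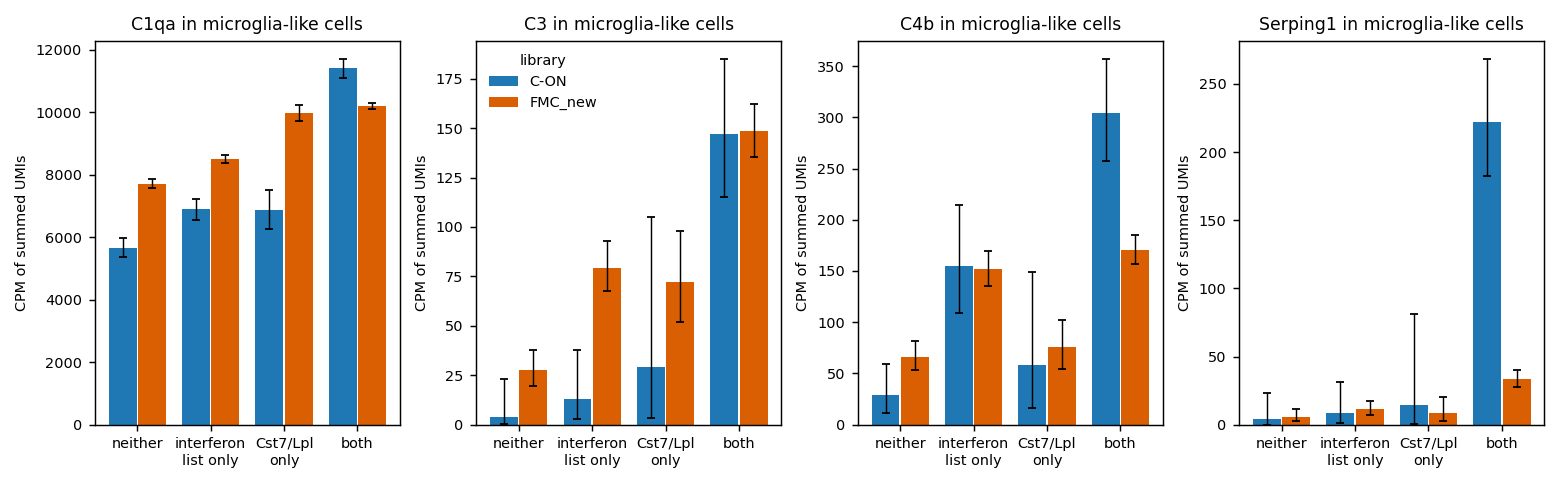
*C1qa*, *C3*, *C4b* and *Serping1* in microglia-like cells split by a *Cst7* or *Lpl* UMI and by 2 or more UMIs of the interferon list, as CPM of summed UMIs, 1 bar per library with the exact 95% Poisson interval. *Serping1* stands at 222 and 33.6 CPM in cells with both and below 15 CPM in every other group, and *C3* at 147 and 148 CPM with both.

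Between the 2 libraries the members of microglia-like cells differed little, except for *Serping1*. The *Serping1* level was 88.5 CPM in C-ON and 19.999 CPM in FMC_new, 0.23 times as high. In C-ON its 114 UMIs came from 32 of 222 cells, and the tenth of cells with most of them held 92.1%. The other 7 members tested had ratios of FMC_new to C-ON between 0.82 and 1.43. So 1 of 8 members was called higher in C-ON, where 5.72% of 8479 genes were, and none higher in FMC_new, where 1.71% were, with 7.43% called either way. The median log2 ratio of FMC_new to C-ON was 0.21 for the 8 members and -0.14 over all genes. *Cfp*, too low to be tested, was at 8.54 CPM in each. Among classes with at least 20 cells in both libraries, the highest class differed between the libraries for *C4b*, border-associated macrophage-like in C-ON and oligodendrocyte-like in FMC_new. It was the same for the other members. This leaves out the neutrophil-like cells, which had the highest *C3* level of FMC_new (222 CPM). The same count over all genes is not given, so this is no result about the members as a set.

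Around these members, a list of 45 complement genes was read for those that reached a level of 50 CPM. The share of all genes that do so is not given. Of them 23 reached 50 CPM in some class in both libraries, namely 4 of 8 classical-pathway genes (all members), 3 of 4 of the central and alternative pathway, 3 of 6 of the lectin pathway, 7 of 11 regulators, 6 of 9 receptors and none of the 7 terminal-pathway genes, which build the membrane attack complex. A gene below this level is not thereby absent, and only *Cfd*, *Mbl2* and *C8b* had no UMI in either library.

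Non-member genes that reached 50 CPM had patterns of their own. *Masp1*, a lectin-pathway protease, was highest in oligodendrocyte-like cells (73.4 and 130 CPM) and was called higher in those with a *Serpina3n* UMI (93.6 against 40.0 and 157 against 31.8 CPM). *Cd59a*, a membrane inhibitor of the attack complex, was also highest there (280 and 244 CPM) and was not called. *Vtn* was at 143 and 326 CPM in fibroblast-like cells and *Clu* at 276 and 529 CPM in tumor cell-like cells and at 740 and 1616 CPM in the 18 and 244 astrocyte-like cells, both encoding fluid-phase inhibitors of the terminal complex. *Susd4* was highest in tumor cell-like cells (118 and 70.7 CPM). Of the integrin subunits of the complement receptors, *Itgam* was at 293 and 267 CPM in microglia-like cells and *Itgax* at 128 and 164 CPM in type 2 dendritic cell-like cells.

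**Figure D5:**
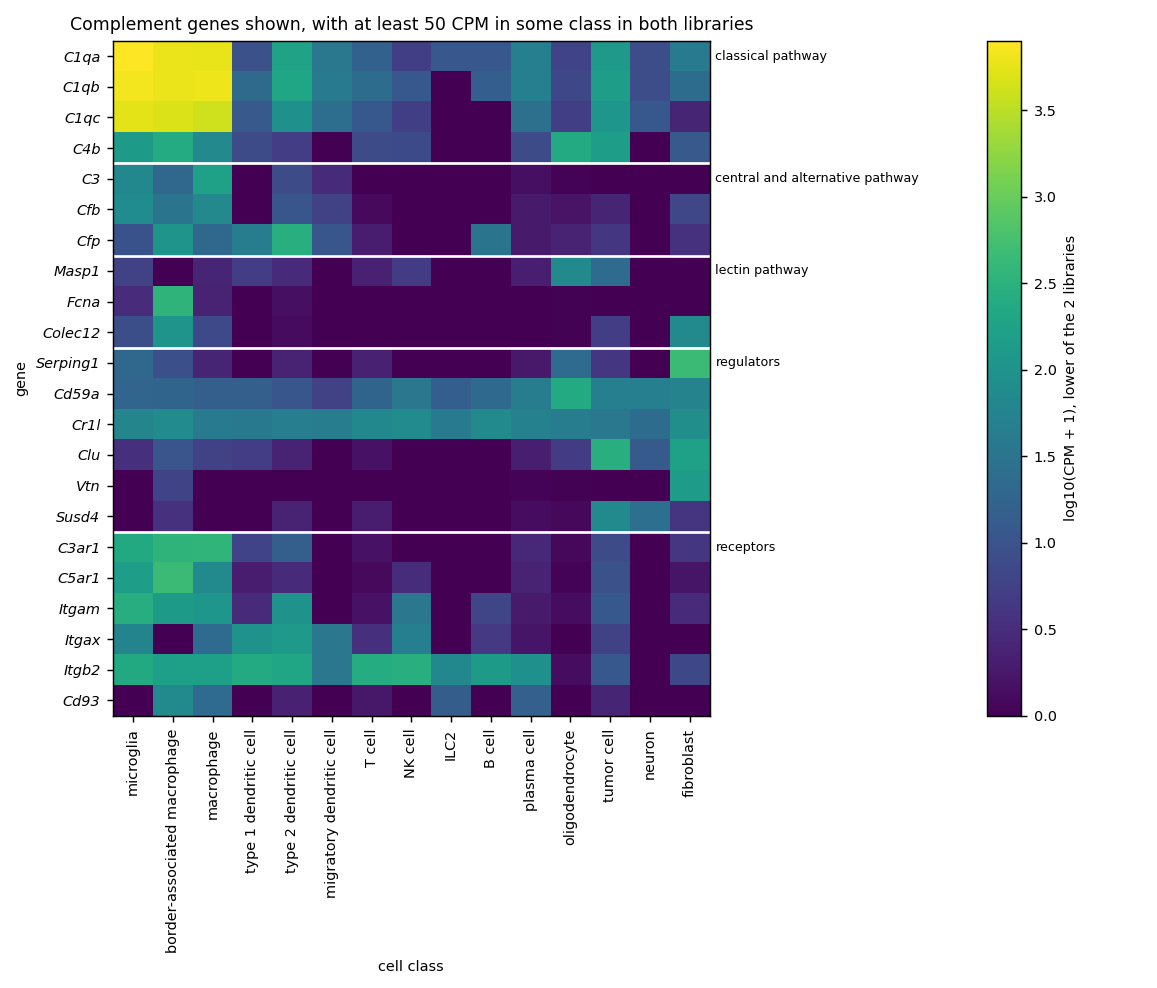
All but 1 of the 23 complement genes with at least 50 CPM in some class in both libraries, colored by log10(CPM + 1) of the lower of the 2 libraries, in the classes with at least 20 cells in both. The *C1q* genes form the brightest block in the 3 macrophage classes, *Fcna* and *Colec12* are bright in border-associated macrophages, *Masp1* and *Cd59a* in oligodendrocytes, *Vtn* in fibroblasts and *Susd4* in tumor cells.

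Across 12 classes with at least 50 cells in each library (24 points, which share libraries, depth and free RNA), log2(CPM + 1) of *C1qa* and *C1qb* had a Pearson correlation of 0.99 and that of *C1qa* and *C1qc* 0.97. *C3*, *C3ar1* and *C5ar1* correlated with *C1qa* at 0.93, 0.93 and 0.92. *C4b*, *Cfp* and *Serping1* followed other patterns, at 0.48, 0.42 and 0.25 with *C1qa*, and *Cfp* and *Serping1* had the lowest value of all pairs at -0.20. Neighbors were sought among the 7841 genes with at least 50 CPM in some of these classes, leaving out those of the complement lists. The most alike to *C1qa* were *Trem2* (0.97), *Csf1r* (0.96) and *Fcgr1* (0.96), and the closest to *C1qb* and *C1qc* was *Csf1r* (0.98 for each). *C3* was closest to *Fcgr1* (0.96), *C3ar1* to *Adgre1* (0.97) and *C5ar1* to *Slco2b1* (0.95), a gene of tissue macrophages. *Cfp* was closest to *Ciita* (0.90), the activator of MHC class II genes, *Serping1* to *Kcnj2* (0.93) and *C4b* to *Fam219a* (0.86) and the interferon-induced *Gm4951* (0.85). These correlations describe the classes and carry no test.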

How the data were processed

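Single-cell 5′ libraries of Nf1OPG optic nerves were analysed. The authors deposited raw UMI counts per gene and barcode, made with Cell Ranger 7.2.0 against mm10 per the labels and files (the paper's text names another version of Cell Ranger). Counts were used as deposited, and a 5′ UMI count is not scaled by transcript length.

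Cells with 500 to 5000 genes, 500 to 20000 UMIs and at most 5% mitochondrial UMIs were kept. In Seurat 5.3.0 (R 4.3.3), UMIs were log normalized, 2000 variable features were chosen without complement genes, the libraries were integrated by CCA and clustered on 30 components at a resolution of 0.8, and macrophage and fibroblast clusters were divided further at 0.5. All other steps ran in Python 3.11.15 with scanpy 1.11.5, pandas 2.3.3, scipy 1.17.1 and numpy 2.4.6. A cluster was named from a marker list when at least 3 markers, and at least 40% of the list, were found in at least 20% of its cells at 2 times or more the mean over clusters. How clusters led by other genes were treated was settled after their leading genes were seen. Scrublet marked 1 and 0 cells as doublets, which shows that it did not work here, so no doublets were removed. Among named cells, 23.6% in C-ON and 38.7% in FMC_new held at least 3 markers of an unrelated class, among them 8.38% and 24.0% of oligodendrocyte-like, 57.7% and 41.3% of microglia-like, 58.2% and 38.2% of border-associated macrophage-like, 58.5% and 40.1% of type 2 dendritic cell-like and 75.8% and 85.3% of fibroblast-like cells.

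UMIs were summed per class and library, divided by all UMIs of the class and given as CPM with exact Poisson 95% intervals. Shares were compared after thinning to 1000 UMIs, which left out 612 shallower cells. With 2 libraries of 1 condition no test was made, and a gene was called where the fold was at least 2 the same way in both libraries among genes with a mean of at least 10 CPM. The step was tried on simulated counts with the same mean levels in both libraries and counting error only. That simulation holds no spread between libraries, so it cannot show how the rule fares under such spread. The genes named are the 9 members, complement genes reaching 50 CPM in some class in both libraries, the 3 genes most alike to each member, and markers. Of the complement genes, 1 regulator is counted but not reported here by name or level. The members and lists were chosen with earlier results of these data known, including which genes mark cell states. Positions are from the GENCODE M21 annotation of GRCm38, and promoters from RefSeq, GRCm38.p6.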

Additional observations from a re-analysis of the deposited data

How the results depend on the processing

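Recounting the calls under other settings changed 5 of 75 counts by more than 1.5 times. With classes set from the markers in each cell rather than from clusters, 5 members were called between oligodendrocytes with and without *Serpina3n* (2 in the report, the *C1q* genes being called lower), 1 between microglia with and without *Cst7* or *Lpl* (2 in the report, *Serping1* being lost) and 2 between the libraries in microglia (1 in the report, *C3* being added). With cells thinned to 1000 UMIs, 1 member was called between microglia with and without *Cst7* or *Lpl*. Without cells that hold 3 or more markers of an unrelated class, an alternative added after the data were seen, 3 were called between the libraries. Between border-associated macrophages and microglia, *C5ar1* was lost at a resolution of 0.4, without the shallow microglia cluster and with 2 unnamed *Mrc1*-led sub-clusters added, and with classes from the markers in each cell *C3* was lost and *C4b* called. *C1qc* was lost from the interferon comparison with those classes and without cells that hold unrelated markers. The cause was not tested. Without replicate 1 or without replicate 2, the counts stayed at 4 for border-associated macrophages, at 2 for *Serpina3n*, between 2 and 3 for the interferon list and between 2 and 3 for *Cst7* or *Lpl*. In C-ON alone *C1qc* was too low to test in oligodendrocytes, and *C4b* was called in the *Cst7* or *Lpl* comparison. Of the levels in the report's highest classes, 11 of 110 moved by more than the spread between libraries, with ratios to the reported value of 0.477 to 1.52, both extremes being values of 1 library alone. *Serping1* in fibroblast-like cells was at 708 CPM without cells that hold unrelated markers. Thinning moved 8 of 10 shares. No paired analysis was possible because both libraries belong to 1 group.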

Other observations

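Some clusters stayed unnamed because they carried markers of 2 classes. Cluster 30, whose cells hold oligodendrocyte markers and whose leading genes include *Csf1r*, *P2ry12* and *Cx3cr1*, had 702 CPM of *C1qa* in 10 cells of C-ON and 2307 in 150 cells of FMC_new, with 381 and 398 CPM of *C4b*. Cluster 29, whose leading genes include *Cd3g* and *Cd5*, had 404 and 444 CPM of *C4b*. Among unnamed macrophage sub-clusters, 4_4, led by *Arhgap22* and *Lrmda* with *Mrc1* and *F13a1*, had 487 and 538 CPM of *C3ar1* and 286 and 341 CPM of *C5ar1*, and 1819 and 2686 CPM of *C1qa*, below the levels of the named macrophage classes.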
